A study of Mus musculus with 10 samples.

Results

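The interleukins and cytokine receptors described here are 51 mouse genes, 23 coding for ligands, 26 for receptors and 2 for soluble inhibitors. Each gene was represented by the methylation windows that overlapped its RefSeq span in the GRCm38 assembly, extended by 5 kb on each side. In all, 712 of 446336 windows lay at 45 of the genes. No window was present at Il2, Il12a, Il17a, Il17f, Il20 or Il22, so nothing is said of their methylation. DNA methylation was measured by capture bisulfite sequencing (Methyl-seq) in whole lung tissue of female BALB/c mice. Saline mice (n = 3) were the controls. OVA mice (n = 3) were sensitised with ovalbumin and alum and challenged with ovalbumin through the nose, which is a model of allergic asthma. DSE mice (n = 4) went through the same ovalbumin induction and were also given DSE, an extract of the seeds of Descurainia sophia; the labels call this group herbal treatment. No group received DSE without ovalbumin, so the extract was seen only on top of the induction. A window is 1000 bp long, neighbouring windows start 500 bp apart, and the methylation level is the percentage of cytosine calls at CpGs that were methylated.

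Cytokines are secreted proteins by which immune, epithelial and stromal cells signal to each other. A ligand binds a receptor chain that recognises it, which pairs with a shared signalling chain such as gp130, the common gamma chain or the IL-1 receptor accessory protein. Most of these receptors signal through Janus kinases and STAT factors, while the IL-1 and IL-17 receptor families signal through adaptor proteins toward NF-kappaB. In allergic airways these pathways are known for their part in recruiting eosinophils, neutrophils and lymphocytes. Methylation over a gene's start site is usually low where the start lies in a CpG island, and methylation inside genes varies with cell type.

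The sequences below are the stretches of 200 bases richest in CpGs outside annotated exons in 5 of the windows on which the results turn. Calls were summed over each whole window, so how many came from the CpGs shown is not known. The sequences come from the RefSeq GRCm38 genome, run 5′ to 3′ on the strand of the gene, and have each CpG in capitals. The Il17ra stretch lies in intron 1 at chr6:120466727-120466926 on the plus strand and holds 7 of the 15 CpGs of its window. The Il6ra stretch lies in intron 1 at chr3:89908629-89908828 on the minus strand. The Il27ra stretch lies upstream of the gene at chr8:84045001-84045200 on the minus strand. The Il1rap stretch lies at chr16:26581296-26581495 on the plus strand, in the window that holds the start site. The Il2rb stretch lies at chr15:78508501-78508700 on the minus strand, upstream of the start site of the RefSeq Select transcript but inside the annotated span of the gene.
Il17ra: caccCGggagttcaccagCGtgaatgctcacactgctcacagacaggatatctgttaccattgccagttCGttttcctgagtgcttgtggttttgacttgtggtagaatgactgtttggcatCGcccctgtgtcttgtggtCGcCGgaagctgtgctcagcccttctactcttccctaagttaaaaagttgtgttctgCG
Il6ra: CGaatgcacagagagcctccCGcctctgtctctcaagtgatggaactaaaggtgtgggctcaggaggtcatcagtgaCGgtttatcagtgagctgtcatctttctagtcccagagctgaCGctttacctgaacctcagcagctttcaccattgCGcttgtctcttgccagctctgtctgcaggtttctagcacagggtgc
Il27ra: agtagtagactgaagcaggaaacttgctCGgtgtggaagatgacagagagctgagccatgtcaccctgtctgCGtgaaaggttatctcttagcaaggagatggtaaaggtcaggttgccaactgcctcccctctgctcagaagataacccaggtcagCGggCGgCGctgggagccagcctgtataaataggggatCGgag
Il1rap: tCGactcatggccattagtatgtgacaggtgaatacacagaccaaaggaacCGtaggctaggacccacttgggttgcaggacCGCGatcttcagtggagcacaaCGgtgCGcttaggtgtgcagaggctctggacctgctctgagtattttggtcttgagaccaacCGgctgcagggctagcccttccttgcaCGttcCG
Il2rb: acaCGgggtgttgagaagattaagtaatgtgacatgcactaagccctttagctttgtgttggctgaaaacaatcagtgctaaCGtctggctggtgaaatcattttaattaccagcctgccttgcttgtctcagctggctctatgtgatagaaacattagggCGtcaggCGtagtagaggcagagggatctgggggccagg
The 9 letters TTCNNNGAA, a form bound by STAT factors that reads the same on both strands, were found 1 time in the Il17ra window and 1 time in the Il6ra window, and in 26.9% of all 446313 nuclear windows. A common form of the NF-kappaB motif, searched on both strands, was found 1 time in the Il6ra window and in 4.42% of all windows.

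A mouse had between 306656737 and 410836272 CpG calls over all windows, in which overlapping windows count a call more than once. At the member windows a mouse had 10 to 7705 calls, with a median of 462. At that median, a level near 50% has a 95% Wilson interval from 45.5 to 54.5%, and at the minimum of 20 calls from 29.9 to 70.1%. Such an interval is for counting error alone. Between mice of 1 group, the squared difference at member windows was on average 2.41 to 4.14 times that given by counting error, so the mice differed by more than their depth. The start sites of 6 leukocyte marker genes of 12 listed had a mean methylation of 51.0% ± 0.36 (SD, n = 3) in saline, 44.0% ± 3.03 (n = 3) in OVA and 43.0% ± 1.77 (n = 4) in DSE mice. The 6 genes did not move together. Ptprc, the gene of CD45, was at 62.8, 46.5 and 44.0% in the same order, Laptm5 at 57.8, 45.8 and 41.8% and Itgal at 53.6, 42.7 and 42.6%, and at these 3 the OVA and DSE mice lay below the saline mice. Cd3g was at 70.9, 67.5 and 65.7%, Coro1a at 2.39, 2.32 and 2.25% and Cd79a at 58.4, 59.2 and 61.6%, and at these 3 the mice of the groups overlapped. The means of 6 lung epithelial genes were 28.2, 27.4 and 27.8%, and those of 3 lung endothelial genes 21.6, 23.6 and 21.6%. These means hid single genes that moved. Tek was at 25.3, 34.2 and 31.55% and Tie1 at 37.6, 34.7 and 31.2%. The OVA and DSE mice lay above the saline mice at Tek and below them at Tie1. Epcam was at 15.6, 17.7 and 21.7%, with the DSE mice above the saline mice. At Kdr and the other epithelial genes, the saline mice overlapped with both other groups. In whole lung, a change in the share of a cell type and a change within cells cannot be told apart. The part of these marker shifts in the results below was not tested.

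To see how ligand and receptor genes differ in the control lung, the windows over each start site were averaged. Start sites were measured at 27 genes. Ligand genes had more methylated start sites than receptor genes in saline lungs, with a mean of 28.8% ± 0.73 (SD, n = 3) over 7 ligands and 10.9% ± 0.91 over 19 receptors. The difference was 17.8 points ± 1.59 in saline, 15.7 ± 0.58 in OVA and 17.1 ± 0.77 in DSE mice, and it was positive in each of the 10 mice. Only 7 of the 23 ligands had a window over the start site, and across genes the 2 roles overlapped widely. Of the receptors, 15 of 19 were under 20%, as were 82.6% of 15516 protein-coding genes, against 3 of 7 ligands.

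**Figure D1:**
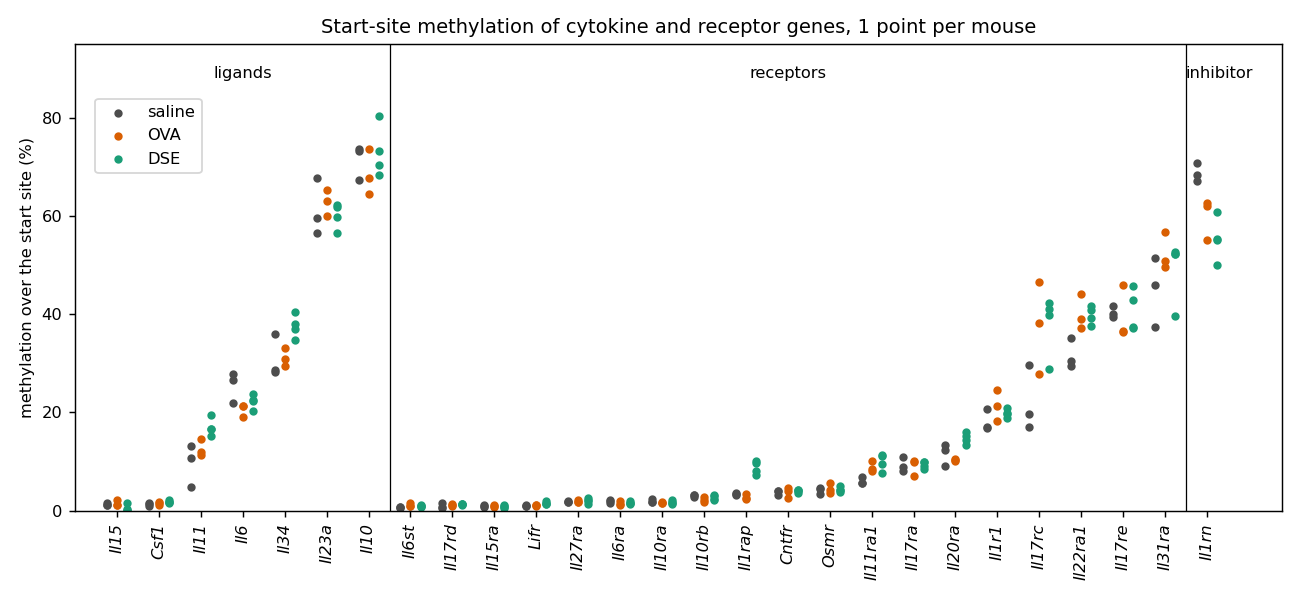
Methylation (%) over the start site of 27 genes, 1 point per mouse, with saline, OVA and DSE mice in separate colours and genes ordered by their saline mean within ligands, receptors and the inhibitor Il1rn. Il10 and Il23a lie above 50% in every mouse, and Il1rap is higher in the 4 DSE mice than in the other mice.

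Among the ligands, Il15, which codes for a growth factor of natural killer and memory T cells, had the lowest start methylation in saline mice at 1.26% ± 0.17, followed by Csf1, the macrophage growth factor, at 1.35% ± 0.30, and Il11, a gp130 cytokine, at 9.63% ± 4.30. The highest were Il10, an anti-inflammatory cytokine, at 71.3% ± 3.55, Il23a, a subunit of IL-23, at 61.3% ± 5.85, and Il34, a ligand of the CSF-1 receptor, at 31.0% ± 4.34. Il15 and Csf1 did not differ beyond their spread. Among the receptors, Il6st, the gene of gp130, was at 0.67% ± 0.08, Il17rd at 0.93% ± 0.59 and Il15ra at 0.96% ± 0.15. Il17rd overlapped with both of the others, while the 3 saline mice were lower at Il6st than at Il15ra. At the other end, Il31ra was at 44.9% ± 7.09, Il17re at 40.3% ± 1.18 and Il22ra1, a subunit of the IL-22 receptor, at 31.7% ± 3.08.

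To ask what the induction changed, OVA mice were compared with saline mice. Differentially methylated regions (DMRs) were windows that differed by at least 10 percentage points at an adjusted p under 0.01 in a logistic test on the pooled calls. At the cytokine and receptor genes, 51 of 703 tested windows were hyper methylated and 39 were hypo methylated in OVA vs. saline, against 4.75% hyper and 2.56% hypo methylated among all 436201 windows tested. The 51 windows merged into 26 regions and the 39 into 20. At 54 member windows the calls of every mouse were the same as those of the window before. Counts of windows, also those per gene below, include such repeats. At least 1 DMR was found at 26 of 45 genes, and at 33.0% of all RefSeq genes with a tested window; these shares depend on how many windows a gene has. OVA and saline mice were fully separated at 215 member windows, or 30.6%, against 26.9% of all windows. In the pooled test each call is a separate observation, and how far mice of a group differ plays no part. Limma on M-values does take it into account. With it, 0 of 703 windows differed by at least 10 points at an adjusted p under 0.05, as did 0.00% of all windows. An unadjusted p under 0.05 was found at 170 member windows, or 24.2%, and at 19.2% of all windows. The window calls below are therefore those of the pooled test, and a limma adjusted p is given with most windows described in detail.

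By role, 18 ligand windows were hyper and 6 hypo methylated of 176 tested, receptor windows were split 33 to 32 of 517, and 1 of 10 inhibitor windows was hypo methylated. By family, the IL-1 genes had 0 hyper and 9 hypo methylated windows of 87. The colony stimulating factors and other cytokines had 13 hyper and 0 hypo methylated of 103. The IL-17 receptor genes had 9 and 7 of 99, the gp130 and IL-12 family 24 and 18 of 286, the IL-10 family 3 and 4 of 67, and the common gamma chain family 2 and 1 of 61. Among all windows tested, 4.75% were hyper and 2.56% hypo methylated. The common gamma chain family, with 3.28% hyper and 1.64% hypo methylated, was not above these shares, nor was the IL-10 family for hyper methylated windows, with 4.48%. The median difference over the member windows was 0.77 points, and over all windows 0.73 points.

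**Figure D2:**
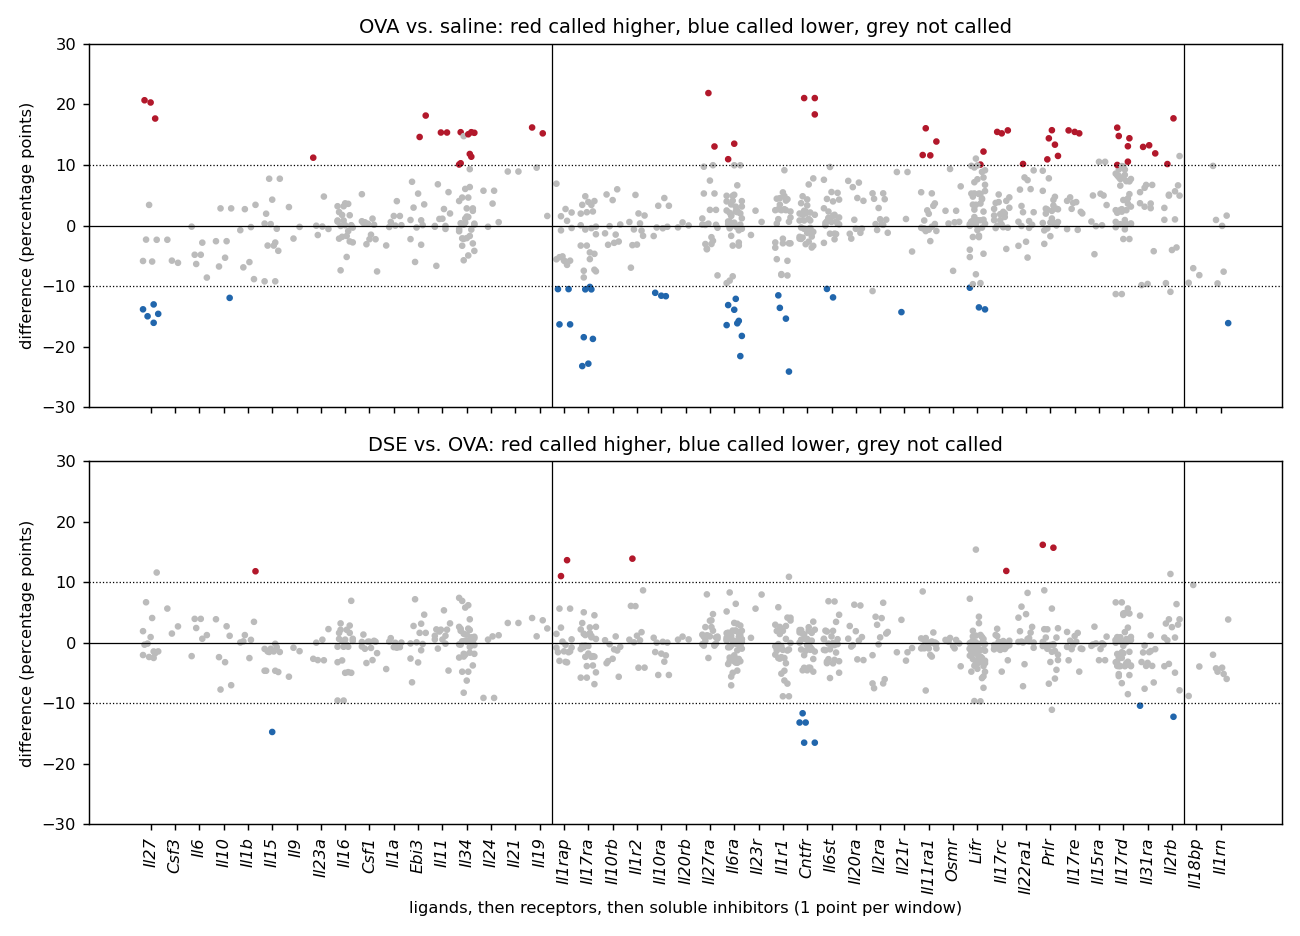
Difference in methylation (percentage points) for each window of 45 genes in OVA vs. saline (top) and DSE vs. OVA (bottom), 1 point per window, with dotted lines at 10 points in either direction. Red and blue points passed both thresholds of the pooled test: 51 and 39 windows above and 7 and 8 below, where a window shared by Il17rc and Il17re is drawn at both.

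The receptors of the IL-17 family, whose ligands drive neutrophilic inflammation, moved in different directions. At Il17ra, the chain shared by most IL-17 receptors, 7 windows were hypo methylated and 0 hyper methylated. The window chr6:120466501-120467500 in intron 1, 3804 bp from the start site, was methylated at 70.8, 72.0 and 70.8% in the saline mice. It was at 55.6, 44.1 and 45.0% in the OVA mice, and at 50.5, 45.2, 51.9 and 42.8% in the DSE mice. All OVA and DSE mice lay below all saline mice. The pooled difference was -23.2 points in OVA vs. saline and -23.7 points in DSE vs. saline, with limma adjusted p = 0.103 and 0.0253. At Il17rc, which pairs with Il17ra, both windows over the start site were hyper methylated. The call at chr6:113470501-113471500 was lost without saline replicate 1 (12.8 points) or OVA replicate 3 (9.73 points). The other, chr6:113471001-113472000, had 20.9, 18.4 and 29.7% in saline, 28.8, 40.9 and 46.0% in OVA and 30.9, 39.2, 33.9 and 39.8% in DSE mice. The OVA and saline values overlapped, and limma gave an adjusted p = 0.18. Il17rd, a receptor-like regulator of IL-17 and growth factor signalling, had 4 hyper methylated windows in intron 1 and 2 over exons 9 and 10. At chr14:27094001-27095000, 55500 bp from the start site, the mean rose in the pooled test from 58.5% ± 3.60 to 71.6% ± 4.48 in OVA mice, and was 77.4% ± 2.53 in DSE mice (limma adjusted p = 0.134 for OVA vs. saline). The 3 hyper methylated windows within reach of Il17re, which binds IL-17C, are the same 3 as at Il17rc, because the genes lie next to each other and only 1 of these windows overlaps Il17re itself.

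**Figure D3:**
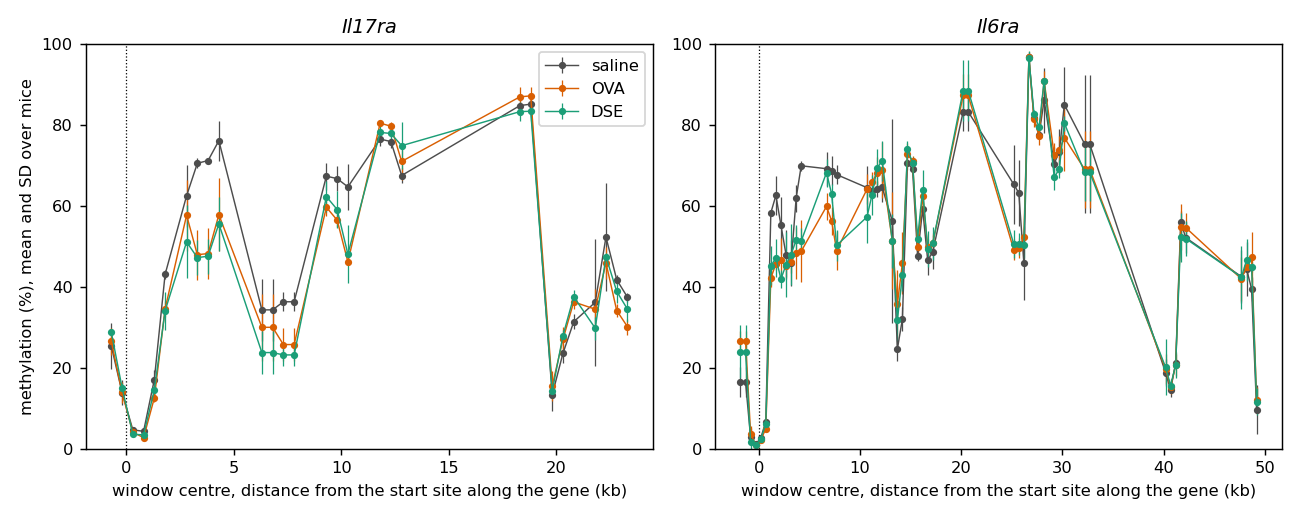
Methylation (%, mean and SD over the mice of a group) of each window along Il17ra and Il6ra against the distance of the window centre from the start site in kb. In intron 1 of Il17ra and in the first part of intron 1 of Il6ra the saline mice lie above the OVA and DSE mice, while all groups are low at the start site.

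In the gp130 and IL-12 family, Il6ra, the receptor of IL-6, had 8 hypo methylated windows and 2 hyper methylated ones. The window chr3:89908501-89909500 in intron 1, 4196 bp from the start site, was at 68.7, 71.1 and 70.0% in saline, 57.5, 43.4 and 45.5% in OVA and 51.9, 48.4, 55.6 and 49.4% in DSE mice. The groups did not overlap with saline, and limma gave adjusted p = 0.103 for OVA and 0.0257 for DSE against saline. Genes of IL-27, a cytokine made of the Il27 and Ebi3 products that binds Il27ra, had hyper methylated windows at all 3 loci. Upstream of Il27ra, chr8:84045001-84046000 was at 27.7, 26.0 and 23.3% in saline, 44.5, 47.8 and 52.3% in OVA and 41.5, 45.8, 38.9 and 52.8% in DSE mice. All OVA and DSE mice lay above all saline mice, with limma adjusted p = 0.103 and 0.0317. This window overlaps no annotated gene. The other hyper methylated window of Il27ra, chr8:84044501-84045500, overlaps it and the neighbouring gene Rln3. At Ebi3, the window chr17:55955501-55956500 over exon 4 was at 13.4, 14.5 and 17.9% in saline, 31.6, 33.0 and 37.0% in OVA and 32.8, 36.9, 34.2 and 36.9% in DSE mice. Limma gave an adjusted p = 0.103 for OVA vs. saline. The window rested on 2054 to 3502 calls per mouse, and overlaps Gm16712 and Zfp119b in the annotation. The hyper methylated windows assigned to Il27 lie inside the neighbouring gene Apobr, 7022 bp from the Il27 start at chr7:126587501-126588500. This window was at 22.8% ± 2.41 in saline, 44.2% ± 7.74 in OVA and 43.3% ± 2.47 in DSE mice, with limma adjusted p = 0.103 for OVA vs. saline, and 5 other windows near Il27 were hypo methylated. Cntfr, the receptor of ciliary neurotrophic factor, had 3 hyper methylated windows, and Prlr, the prolactin receptor, had 5. At the upstream end of Lifr, the receptor of leukaemia inhibitory factor, chr15:7113001-7114000 was at 84.8% ± 5.30 in saline, 69.3% ± 7.56 in OVA and 65.9% ± 9.99 in DSE mice (limma adjusted p = 0.151 for OVA vs. saline). Without OVA replicate 3 its difference was -10.7 points and no longer passed. In all, Lifr had 3 hypo methylated windows and 2 hyper methylated ones in OVA vs. saline. The mean of Lifr over 50 windows was 58.9% ± 0.61 in saline and 60.9% ± 0.72 in OVA mice (limma adjusted p = 0.195).

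Among the IL-1 genes, Il1r1, the signalling receptor of IL-1, had 4 hypo methylated windows. The one with the largest difference, chr1:40268001-40269000 in intron 1, differed by -24.1 points but had only 11 to 56 calls per mouse, and 1 OVA and 1 DSE mouse had too few calls. Limma gave it an adjusted p = 0.132. Il1rap, the accessory protein of IL-1 receptors, had 4 hypo methylated windows, 2 in intron 4 and 2 beyond the end of the RefSeq Select transcript. The 2 windows of each place had the same percentages in every mouse, so the 4 windows are 2 measurements. At chr16:26727501-26728500 the saline mice were at 40.6, 35.8 and 33.3%, the OVA mice at 22.7, 21.3 and 16.9% and the DSE mice from 24.7 to 28.2%. The 3 groups did not overlap, limma gave an adjusted p = 0.103 for OVA vs. saline, and this window also overlaps Gm20319. Of the interleukins in the IL-10 family, Il19 had 2 hyper methylated windows upstream. Its window chr1:130946001-130947000 was at 25.2% ± 5.48 in saline, 41.3% ± 3.60 in OVA and 45.0% ± 6.02 in DSE mice (limma adjusted p = 0.117 for OVA vs. saline). Il34 had 8 hyper methylated windows of 38 tested, the most of any ligand, but it also had the most windows of any ligand. Its mean over windows did not pass in limma (adjusted p = 0.121 for OVA vs. saline). Il10ra, a chain of the IL-10 receptor, had 3 hypo methylated windows upstream. Il11ra1 had 4 hyper methylated windows, but it has near-identical copies in the genome and 1 of the windows lies in Ccl27a, so its calls are uncertain.

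At Il2rb, a receptor chain of IL-2 and IL-15, 1 window was higher in the OVA mice than in both other groups. The window chr15:78508501-78509500 was at 66.7, 62.6 and 62.0% in saline, 79.0, 82.4 and 82.6% in OVA and 63.0, 68.2, 72.9 and 73.0% in DSE mice. The OVA mice overlapped with neither group. The pooled difference was 17.7 points in OVA vs. saline and -12.2 points in DSE vs. OVA, with limma adjusted p = 0.103 and 0.168. Without DSE replicate 1 the difference in DSE vs. OVA was -9.48 points and no longer passed. This window had 88 to 165 calls per mouse. The next Il2rb window, chr15:78509001-78510000, overlaps it and had 601 to 811 calls per mouse. There the pooled difference was 10.2 points in OVA vs. saline and 10.6 points in DSE vs. saline, both called hyper methylated. DSE and OVA mice overlapped there and differed by 0.437 points, so the lower level in DSE mice was not seen in that window. Cntfr was highest in OVA mice at chr4:41689001-41690000 in intron 1, with 48.8% ± 8.24 in saline, 66.3% ± 7.71 in OVA and 51.5% ± 6.33 in DSE mice. There the OVA and DSE mice overlapped, because OVA replicate 1 was at 57.7% and DSE replicate 3 at 58.2%. Limma gave adjusted p = 0.173 for OVA vs. saline and 0.339 for DSE vs. OVA, and without OVA replicate 3 the latter difference was -12.6 points and no longer passed.

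To ask what the extract changed in induced mice, DSE mice were compared with OVA mice. At the cytokine and receptor genes, DSE vs. OVA gave 7 hyper and 8 hypo methylated DMRs among 703 windows, against 0.898% and 0.725% of 437460 windows. The groups did not overlap at 75 member windows, or 10.7%, and at 10.5% of all windows, so the member share was near that of all windows. DMRs were found at 9 of 45 genes, and at 13.9% of all RefSeq genes with a tested window. With limma, 1 member window differed by at least 10 points at an adjusted p under 0.05, as did 0.0555% of all windows. An unadjusted p under 0.05 was found at 70 member windows, or 9.96%, near the 9.66% of all windows.

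That window is 1 of 2 that hold the start site of Il1rap. At chr16:26581001-26582000, which has 55 CpGs, the saline mice were at 5.78, 5.99 and 5.89%, the OVA mice at 4.57, 6.59 and 4.12% and the DSE mice at 14.8, 17.9, 19.0 and 13.6%. All 4 DSE mice lay above all other mice. The pooled difference was 11.1 points from OVA and 10.3 points from saline, with limma adjusted p = 0.0475 and 0.0253. Without DSE replicate 2 or 3 the difference from saline was 9.71 or 9.46 points, under the threshold of 10 points. The window before it, chr16:26580501-26581500, shares part of these calls and was at 19.1% ± 1.19 in saline, 19.6% ± 4.69 in OVA and 33.5% ± 1.71 in DSE mice. The other window over the start site was not called. Averaged over the 2 windows that hold the start site, Il1rap was at 3.41% ± 0.24 in saline, 2.80% ± 0.58 in OVA and 8.71% ± 1.37 in DSE mice.

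Prlr, Il1b and Il1r2 were higher in DSE mice than in both other groups in the pooled test. Prlr intron 2, at chr15:10297501-10298500, was at 46.2, 55.1 and 37.6% in saline, 50.5, 40.7 and 47.2% in OVA and 61.9, 62.2, 63.4 and 64.1% in DSE mice. Il1b, which codes for IL-1 beta, was at 50.1% ± 4.79, 53.4% ± 1.42 and 65.1% ± 3.49 over exon 4. Il1r2, a decoy receptor of IL-1, was at 22.8% ± 5.52, 19.8% ± 5.63 and 33.3% ± 3.95 over exon 5. Limma gave adjusted p = 0.0923, 0.192 and 0.242 for DSE vs. OVA. The DSE vs. OVA difference of Il1b was 9.86 points without DSE replicate 1. At Il1r2 the DSE and saline mice overlapped, and the difference from saline was 7.45 points without saline replicate 1 and 9.31 points without DSE replicate 3, under the threshold. Lower in DSE mice was Il15 in intron 1, with 41.0% ± 6.42 in saline, 43.6% ± 4.82 in OVA and 29.9% ± 3.33 in DSE mice, from as few as 47 calls in a mouse and with limma adjusted p = 0.171 for DSE vs. OVA. Its call in DSE vs. OVA was lost without OVA replicate 2 or 3, at -14.2 and -12.9 points, and that in DSE vs. saline without saline replicate 1 or DSE replicate 1, at -7.69 and -8.58 points. Il31ra, a receptor chain of IL-31, fell by 10.4 points in intron 14 in the pooled test, but the mice overlapped and limma gave an adjusted p = 0.573. The call was lost without OVA replicate 1 or 2 or DSE replicate 2 or 4, with differences from -11.1 to -5.74 points. The window assigned to Il17rc in this comparison lies in Creld1. Cntfr held 5 of the 8 hypo methylated windows. Over its exon 3, chr4:41674501-41675500 was at 89.8% ± 1.57 in saline, 93.15% ± 4.08 in OVA and 77.1% ± 9.12 in DSE mice, and the window after it had the same percentages. In intron 1, chr4:41693001-41694000 was at 40.7% ± 3.91, 36.95% ± 7.03 and 28.55% ± 3.68, but the OVA and DSE mice overlapped. These Cntfr windows were also hypo methylated in DSE vs. saline.

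**Figure D4:**
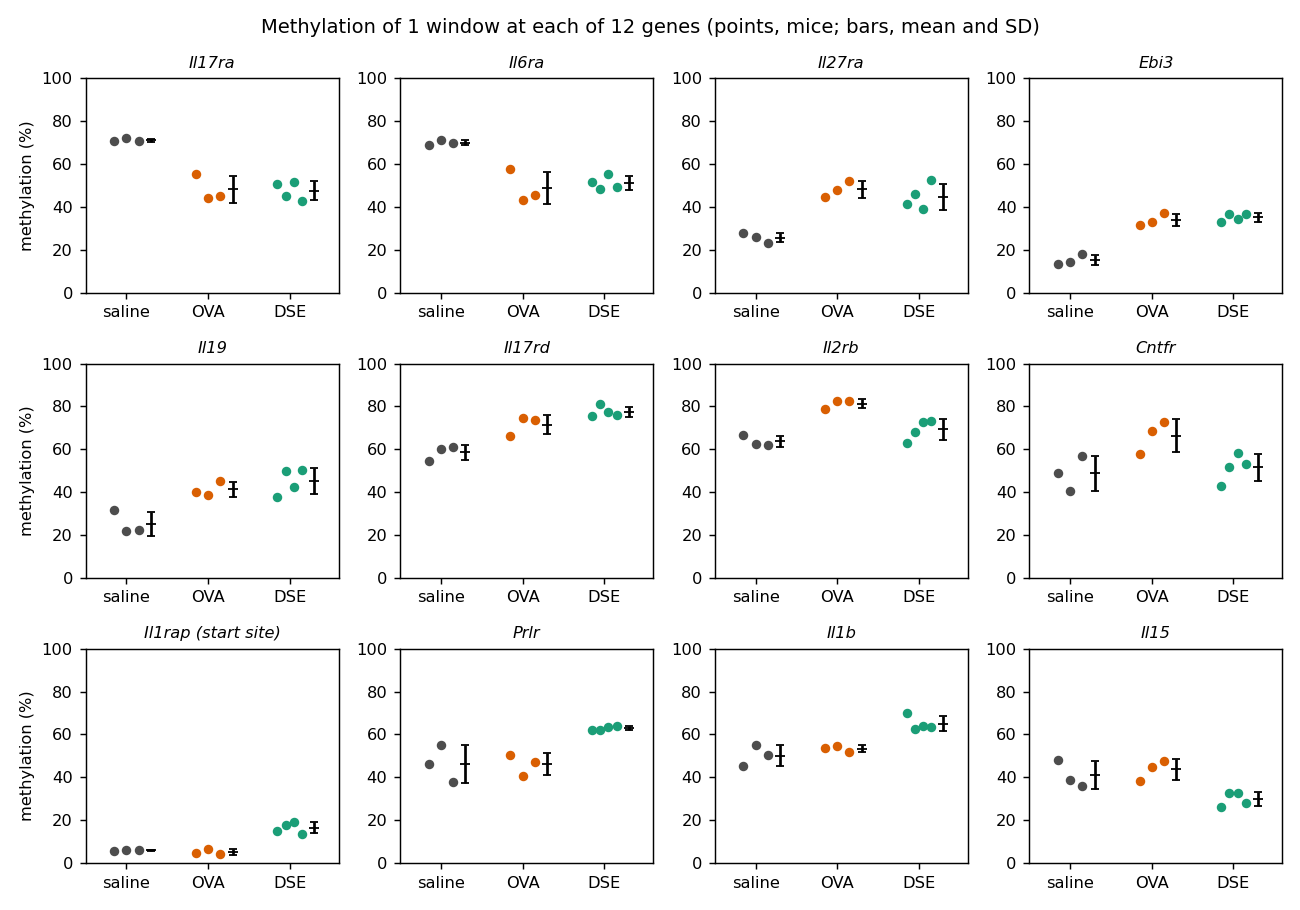
Methylation (%) of 1 window at each of 12 genes, 1 point per mouse in saline, OVA and DSE, with the mean and SD beside the points. Il17ra and Il6ra are lower, and Il27ra, Ebi3 and Il19 higher, in both induced groups. The Il2rb window drawn is highest in OVA. Prlr, Il1b and the called 1 of 2 windows over the Il1rap start site are highest in DSE.

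DSE mice were also compared with saline mice, which shares the saline mice with the first comparison. It gave 49 hyper and 51 hypo methylated DMRs among 704 windows, against 4.95% and 3.07% of 440215 windows, and the mice did not overlap at 205 windows, or 29.1%, against 24.0% of all windows. With limma, 44 of the 704 windows differed by at least 10 points at an adjusted p under 0.05, 23 of them hyper and 21 hypo methylated, against 1.94% and 1.46% of all windows. An unadjusted p under 0.05 was found at 205 member windows, or 29.1%, and at 24.2% of all windows. By role, 21 ligand windows were hyper and 9 hypo methylated of 177, receptor windows were split 28 to 37 of 517, and 5 of 10 inhibitor windows were hypo methylated. The IL-1 genes had 5 hyper and 15 hypo methylated windows of 88. At least 1 DMR was found at 30 of 45 genes, and at 36.9% of all RefSeq genes with a tested window. The start site of Il1rn, the secreted antagonist of the IL-1 receptor, was lower. Its window chr2:24345001-24346000 was at 72.9, 70.5 and 68.0% in saline, 63.3, 62.8 and 55.9% in OVA and 56.5, 61.3, 56.2 and 50.6% in DSE mice. All OVA and DSE mice lay below all saline mice, with a pooled difference of -14.3 points for DSE and limma adjusted p = 0.0404. The most strongly differing window at Il18bp, the decoy of IL-18, lies in Rnf121 and rested on 21 to 91 calls per mouse.

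As a test that uses the spread between mice, the windows of each gene were averaged per mouse and fitted with limma over 37226 genes. In OVA vs. saline, the mean was higher at 6 and lower at 2 of 45 cytokine and receptor genes, against 6.79% higher and 2.53% lower among all genes, and 21 of the 45 had an unadjusted p under 0.05, against 28.7% of all genes. On M-values, 4 were higher and 1 lower, against 3.68% and 2.77% of all genes. The 4 measured IL-17 receptor genes were all among the 8. Il17re was at 34.6, 34.6 and 37.2% in saline and 40.3, 41.6 and 42.1% in OVA mice, a difference of 5.86 points ± 0.89 (SE; limma adjusted p = 0.0119). Il17rd differed by 4.65 points, Il17rc by 3.59 points and Il17ra by -5.03 points, with adjusted p = 0.0203, 0.0418 and 0.0256. Il17re and Il17rc share 10 windows, out of 12 at Il17re and 23 at Il17rc, so they are not independent. The start site of Il17re lies outside the shared windows and was at 40.3% ± 1.18 in saline and 39.65% ± 5.51 in OVA mice. The others were Il21, a T cell cytokine, by 8.82 points over 2 windows, Prlr by 4.36 points, Ebi3 by 3.21 points and Il1rap by -4.52 points. Both Il21 windows lie downstream of the gene. They had the same percentages in every mouse, so they are 1 measurement. The 8 gene calls depended on single mice: without OVA replicate 3 or saline replicate 2, 1 of the 45 genes passed.

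**Figure D5:**
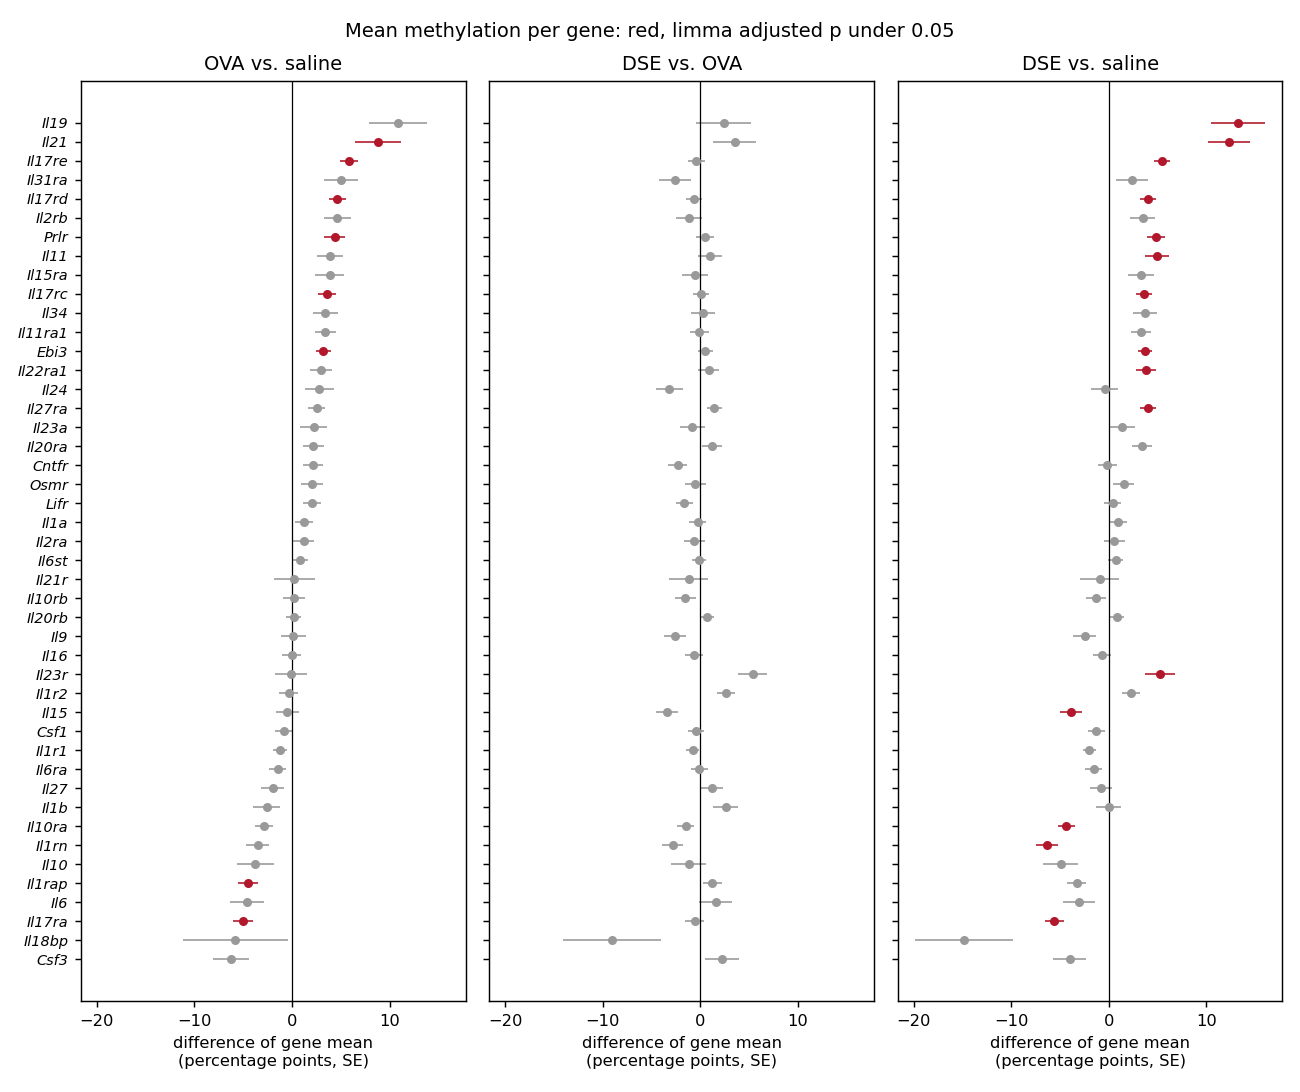
Difference in mean methylation per gene (percentage points, bars are SE) for 45 genes in OVA vs. saline, DSE vs. OVA and DSE vs. saline, ordered by the first. Red marks a limma adjusted p under 0.05: 8 genes in the first panel, 0 in the second and 15 in the third.

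In DSE vs. OVA, 0 of the 45 genes passed by limma, and 0.0269% of all genes passed. An unadjusted p under 0.05 was found at 6 of the 45, or 13.3%, and at 9.02% of all genes. On M-values, 5 of the 45 were higher and 0 lower, against 16.8% and 1.92% of all genes. The smallest p values belonged to Il23r, a receptor chain of IL-23, with 33.8% ± 3.51 in OVA and 39.1% ± 1.46 in DSE mice, Il15, with 23.1% ± 0.53 and 19.7% ± 1.63, and Il1r2, with 34.2% ± 0.65 and 36.8% ± 0.76. In DSE vs. saline, 11 genes were higher and 4 lower, against 10.5% and 3.68% of all genes. An unadjusted p under 0.05 was found at 26 of the 45, against 32.6% of all genes. On M-values 12 were higher and 4 lower, against 22.8% and 3.35% of all genes. Il17re, Il17rd, Il17rc and Il17ra were among them, with 5.45, 3.995, 3.63 and -5.60 points. Il1rn differed by -6.35 points ± 1.11 (SE; limma adjusted p = 0.0118) and Il27ra by 3.996 points ± 0.82 (limma adjusted p = 0.018). Il19 and Il21, with 13.2 and 12.3 points, rested on 4 and 2 windows, and the 2 of Il21 are 1 measurement.

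Other genes of these pathways were described from a list of 24 kinases, STAT factors, inhibitors, adaptors and partner receptors. In OVA vs. saline, 48 of 585 windows were hyper and 20 hypo methylated, beside 4.75% and 2.56% of all windows. Gene means were higher at 4 and lower at 1 of the 24, beside 6.79% and 2.53% of all genes. Stat6, the STAT factor of IL-4 and IL-13, was higher by 4.37 points (limma adjusted p = 0.0419). Traf3ip2, the adaptor of IL-17 receptors, was higher by 4.09 points (limma adjusted p = 0.0448), and Irak1, a kinase of the IL-1 pathway, by 6.47 points (limma adjusted p = 0.0468). Socs1, an inhibitor of Janus kinases, was lower by a difference of -4.39 points (limma adjusted p = 0.0108). In DSE vs. OVA, 4 windows were hyper and 1 hypo methylated of 588, beside 0.898% and 0.725% of all windows, and 0 of the 24 genes passed by limma, with 2 at an unadjusted p under 0.05.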

How the data were processed

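Genomic DNA of 10 lungs was captured with SureSelect Methyl-seq, bisulfite converted and sequenced. The submitters' processing notes name cutadapt 1.10, Bismark 0.19.0, methylKit 1.0.0 and the mm10 build (GRCm38). The authors deposited whole-number counts of methylated and unmethylated CpG calls per window of 1000 bp, moved by 500 bp, for each mouse, with no normalization. From these counts the percentage of methylated calls was computed where a mouse had at least 20 calls.

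Groups came from the sample labels. Windows with at least 20 calls in at least 2 mice per group were compared by a likelihood-ratio test of a logistic model on pooled calls, with Benjamini-Hochberg adjustment over all windows tested. The thresholds were an adjusted p of 0.01 and a difference of 10 points. Each gene was averaged over the windows that had 20 calls or more in every one of the 10 mice, and these means were fitted with limma 3.58.1 in R 4.3.3, with all 3 groups in 1 fit and an adjusted p of 0.05. M-values were log2 ratios of calls with 1 added to each. Exact permutation of 3 against 3 mice cannot give a p below 0.1. Scripts were tested on simulated data.

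The members and lists were chosen with earlier results of these data known. Genes were named by rule: per comparison, the 10 genes with the largest called difference, start windows that were called, genes passing the gene-level test or the 3 smallest p, and the 3 lowest and 3 highest start levels of ligands and receptors. The window counts of Il34 and Il11ra1 were singled out after their values were seen. Leaving out each mouse, other tests, thresholds and windows, and a replicate block were tried as alternatives. Samples are labelled as replicates of a group, so limma p-values measure only the spread between these samples. The p-values of the pooled test do not use that spread. The values of 1 gene of the pathway list are not reported here. Exon and intron numbers refer to the RefSeq Select transcript.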

Additional observations from a re-analysis of the deposited data

Results flagged for a closer look

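Of 70 values each measured in the 4 DSE mice, in 3 a mouse stood apart from the others by a gap that chance gives in about 1 group in 20. The start site of Il31ra was at 39.6% in DSE replicate 1 and between 52.2 and 52.6% in the other DSE mice. The gene mean of Il17re was 41.9% in DSE replicate 2, and between 40.5 and 40.7% in the others. The gene mean of Il1rap was 44.3% in DSE replicate 2, and between 42.2 and 42.5% in the others.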

How the results depend on the processing

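The 90 DMRs in OVA vs. saline became 0 with limma at an adjusted p of 0.01 or 0.05 (170 windows at an unadjusted p under 0.05), 0 with an F test with a scale factor (160), 0 at a difference of 25 points and 49 over windows that do not overlap. The 15 in DSE vs. OVA became 0 with limma at 0.01 and 1 at 0.05 (70 unadjusted), 0 with the F test (78), 0 at 25 points and 9 over such windows. The 100 in DSE vs. saline became 0 with limma at 0.01 and 44 at 0.05 (205 unadjusted), 0 with the F test (204), 0 at 25 points and 56 over such windows. Fewer windows were tested where they do not overlap, and no DMR at the member genes reached a difference of 25 points. The cause of the other changes was not tested. Leaving out 1 mouse gave 75 to 119, 13 to 22 and 93 to 110 DMRs. By M-values, 5, 5 and 16 genes passed in the same 3 comparisons in place of 8, 0 and 15. In the last, the median of all genes moved by 0.16 on the log2 scale, and Il10ra and Il15 turned from lower to 0.012 and 0.16, so relative to that median Il10ra was still lower. Without 1 mouse, the genes that passed numbered 1 to 9, 0 and 4 to 17 in the 3 comparisons. The count in OVA vs. saline was 2 without saline replicate 1 or OVA replicate 2, 1 without saline replicate 2 or OVA replicate 3, 5 without saline replicate 3, and 4 without DSE replicate 3 or 4, which enter only through the shared spread. In DSE vs. saline it was 8, 4 and 8 without saline replicates 1, 2 and 3. With the replicate number as a block, 89, 14 and 98 DMRs and 4, 0 and 4 genes passed in the 3 comparisons, in the order above. Deviations of same-numbered mice correlated at -0.027 to 0.079 over 9 pairs, so the numbers were not taken to pair the mice. The start difference between ligands and receptors in saline mice was 17.8 points, 13.3 over windows within 1000 bp of the start, 21.7 by the median over genes, and 16.9 to 18.4 without 1 mouse. Over the alternatives, named window calls were kept 567 times and lost 209 times. Depth limits windows such as that of Il1r1, with 11 to 56 calls.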
